A study of Sus scrofa with 6 samples.

Results

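The contractile genes of peritubular myoid cells were followed in RNA sequencing of neonatal pig Sertoli cells (NPSC) at baseline and after exposure to human complement. The 10 genes were named by symbol or Ensembl identifier, not by their values: ACTA2, TAGLN, SMTN, MYH11, CNN1, DES, MYL9, TPM1, TPM2 and CALD1. Of these, 9 were matched among the 25149 genes of the count files, 8 had counts, and the same 8 were among the 17512 genes with enough counts to be tested. MYL9, the regulatory light chain of smooth muscle myosin, was the 1 gene not matched by symbol and was not analysed here. All cells were wild-type NPSC isolated from testes of 3- to 5-day-old Duroc-Landrace piglets of 3 litters. They were grown on plates in Dulbecco's modified Eagle medium with 10% fetal bovine serum, and which litter gave which plate is not stated. Before RNA was collected, 3 plates (baseline NPSC) received more medium and 3 plates (complement NPSC) received pooled human serum with its complement preserved, mixed 1:1 with medium for 90 min. The question asked of these genes was whether their RNA differed between baseline and complement NPSC. No plate with heat-inactivated serum is among these libraries, so complement and other parts of human serum cannot be told apart.

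Peritubular myoid cells are flat, smooth-muscle-like cells that surround the seminiferous tubules, lay down the basement membrane together with Sertoli cells, and contract to move sperm and fluid. Their contraction works as in other smooth muscle: calcium and calmodulin activate myosin light chain kinase, phosphorylated myosin pulls on actin filaments, and tropomyosin, caldesmon and calponin bind the actin filament and modulate its use. Many of these genes are transcribed under serum response factor (SRF) and its cofactors, and vascular smooth muscle, pericytes and myofibroblasts use most of the same genes.

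The libraries held 6796183, 7160346 and 8371923 counts in baseline NPSC against 3927472, 3641518 and 6403606 in complement NPSC. Counts on 48 genes of olfactory receptors, which belong to the nasal epithelium, gave a background density, in counts per 1000000 counts (CPM) and kb of exon, of 2.15, 1.2 and 1.18 for the baseline plates and 4.01, 4.43 and 1.51 for the complement plates. Complement 1 and 2 therefore had the fewest counts and the highest olfactory receptor density, and complement 3 lay near the baseline libraries. The expected background, exon length times this density, was 0.225% of the counts of ACTA2 and 6% of those of DES over the 6 libraries, the lowest and the highest share among the contractile genes with counts. CPM was taken on the TMM-scaled library size. Nothing states that plates of the same number share cells.

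NPSC carried RNA of the contractile genes at levels per exon length under those of the cytoplasmic actins and above those of most tested genes. Per exon length, TAGLN (transgelin, an actin-binding protein of smooth muscle) and ACTA2 (smooth muscle alpha-actin) were highest, with means of 894.6 and 894.4 CPM per kb over the 6 libraries. The order of this pair was not fixed, as TAGLN lay above ACTA2 in 3 of 6 libraries. The tropomyosins TPM1 and TPM2 followed at 315.2 and 199.5 CPM per kb. CALD1 (caldesmon) had 119.8 CPM per kb, SMTN (smoothelin) 62.2, CNN1 (calponin 1) 47.7 and DES (desmin) 34.0. From ACTA2 down to DES, each gene lay above the next of this order in 6 of 6 libraries. The closest of these neighbours were TPM1 and TPM2, whose ratio per kb was 1.16 to 1.92, SMTN and CNN1 (1.21 to 1.51) and CNN1 and DES (1.22 to 1.61). DES had a higher mean level per kb than 86.2% of the tested genes and TAGLN than 99.8%. For scale, the cytoplasmic actins ACTB and ACTG1, used by every cell, had 4885 and 3876 CPM per kb, and ACTG2, the gamma-actin of visceral smooth muscle, had 204 CPM per kb. The skeletal and cardiac actins ACTA1 and ACTC1 had 10.4 and 6.35 CPM per kb. Actins and tropomyosins share long stretches of sequence, and how reads that map to several genes were treated is not given, so levels of ACTA2, TPM1 and TPM2 are uncertain to that extent.

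**Figure D1:**
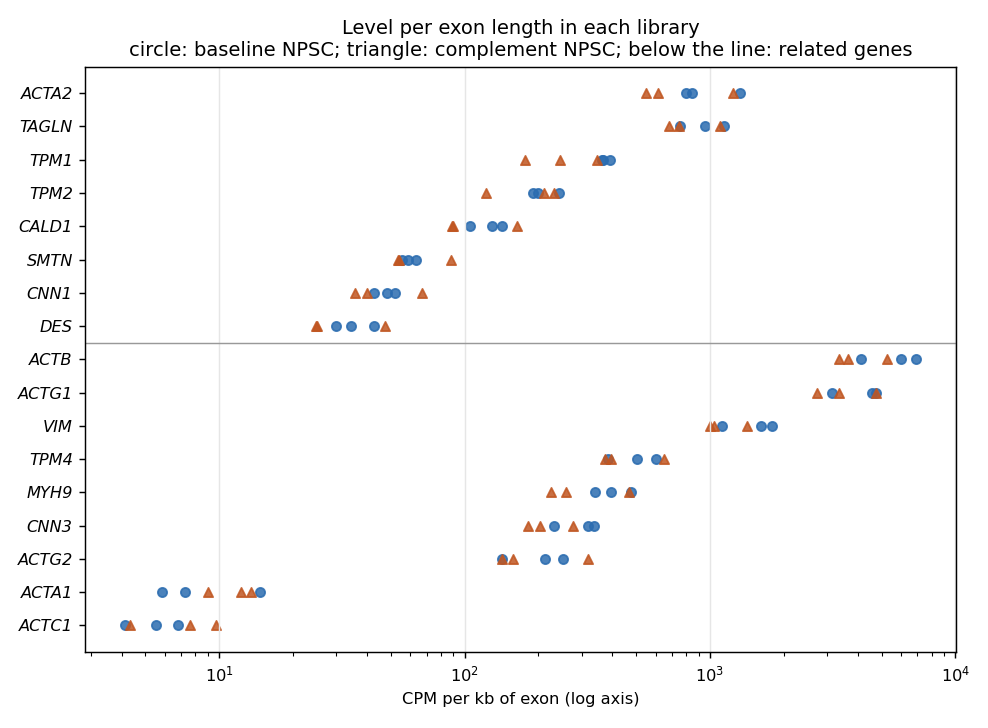
Level of each contractile gene (above the line) and of related genes (below it) in CPM per kb of exon on a log axis, with a circle for each baseline NPSC library and a triangle for each complement NPSC library. ACTA2 and TAGLN lay between 549 and 1321 CPM per kb, under ACTB and ACTG1 and well above the striated muscle actins ACTA1 and ACTC1.

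None of the 8 tested contractile genes passed the thresholds between baseline and complement NPSC (adjusted p under 0.05 and log2 fold change beyond 1 in size, edgeR's quasi-likelihood test, p adjusted by Benjamini-Hochberg across the whole table). Over all genes, 18 of 17512, or 0.103%, passed, and read against this share a count of 0 among 8 is no result about these genes. At an unadjusted p under 0.05 the count was also 0 of 8 in edgeR, against 15.2% of all tested genes, and DESeq2's Wald test passed 0 of 8 at the thresholds and 1 of 8 at an unadjusted p under 0.05, against 0.332% and 12% of all genes with a value in DESeq2. The log2 fold change (complement over baseline) was below 0 for 7 of the 8 genes, with a median of −0.16, where the median of all tested genes was 0.018. Only TPM1 had groups that did not overlap, lower in complement NPSC, against 8.14% of all tested genes lower in this way and 17.1% in either direction. The 95% intervals of the log2 fold changes left a 2-fold rise outside for each of the 8 genes and a 2-fold fall outside for 6 of them, while those of ACTA2 and TPM1 reached below −1. In bulk RNA, fewer cells of a type and less RNA per cell cannot be told apart.

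**Figure D2:**
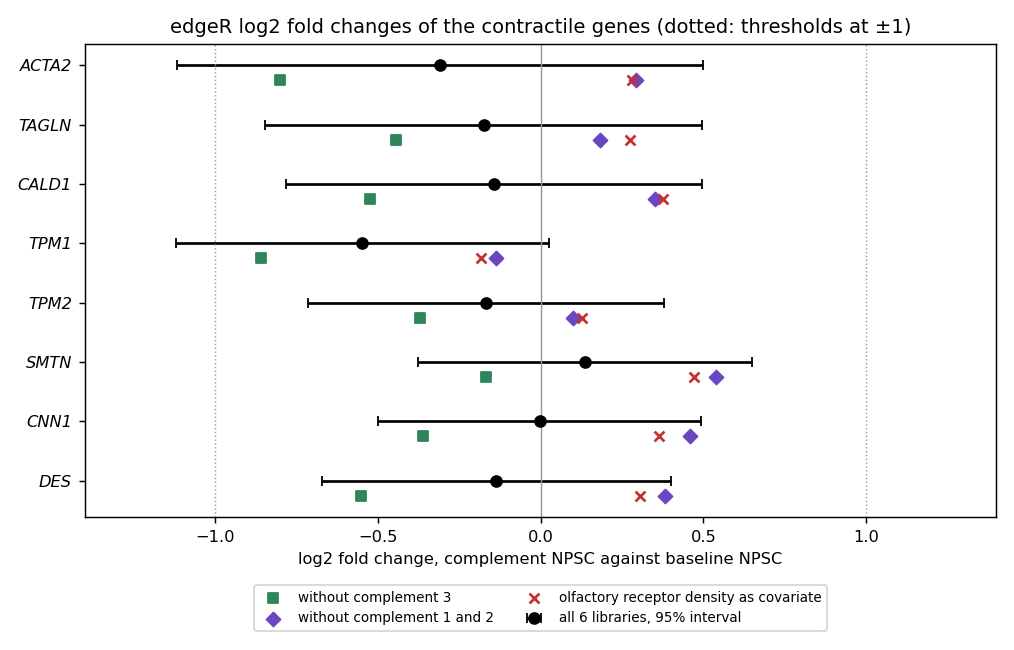
Log2 fold change of each contractile gene (complement over baseline NPSC) from edgeR with its 95% interval over all 6 libraries (black), without complement 3 (green squares), without complement 1 and 2 (purple diamonds) and with the log2 olfactory receptor density as a covariate (red crosses). Each black interval includes 0, and for 7 of 8 genes, all but TPM1, the green squares lie below 0 while the purple diamonds and red crosses lie above it.

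ACTA2, the actin that gives smooth muscle its thin filaments and the customary marker of peritubular myoid cells (ENSSSCG00000010447, minus strand of chromosome 14 from 109852735 to 109871621, in the files' build, which is not named), had 1394, 1319 and 2176 CPM in baseline NPSC. In complement NPSC it had 1008, 904.1 and 2036 CPM. Complement 1 and 2 lay under all baseline libraries, whereas complement 3 lay above baseline 1 and 2, so the groups overlapped. The means were 1630 ± 474.6 and 1316 ± 625.5 CPM (SD, n = 3 each), with a log2 fold change of −0.31 (SE 0.38, 95% interval −1.12 to 0.50, adjusted p = 0.653, edgeR). ACTA2 had the widest range of the 8 genes, 1.27 on the log2 scale between its lowest and highest library.

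TAGLN, which binds and bundles actin filaments (ENSSSCG00000015073, chromosome 9 from 49631072 to 49636680), had 897.5, 1131 and 1353 CPM in baseline NPSC against 805.9, 886.7 and 1303 in complement NPSC. Again complement 1 and 2 were the lowest of the 6 libraries and complement 3 was second to baseline 3. Its means of 1127 ± 227.8 and 998.4 ± 266.6 CPM (SD, n = 3 each) gave a log2 fold change of −0.17 (SE 0.32, 95% interval −0.85 to 0.50, adjusted p = 0.764, edgeR).

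The tropomyosins lie along the actin filament and control the access of myosin to it. TPM1 (ENSSSCG00000004570, chromosome 1 from 120217106 to 120240145) had 410.7, 412.7 and 442.5 CPM in baseline NPSC against 275.5, 199.4 and 390.6 in complement NPSC. All 3 complement libraries lay under all 3 baseline libraries, with complement 3 the nearest to them. The means were 422 ± 17.8 and 288.5 ± 96.3 CPM (SD, n = 3 each), a log2 fold change of −0.55 (SE 0.27, 95% interval −1.12 to 0.025, adjusted p = 0.338, edgeR), or a fold of 0.684 (0.460 to 1.02). This was the largest log2 fold change in size among the 8 genes, and it did not pass the test. TPM2, a second tropomyosin gene on the same chromosome (ENSSSCG00000005316, 264127281 to 264134736), had 220.5, 211.0 and 269.1 CPM in baseline NPSC against 232.6, 135.7 and 254.8 in complement NPSC. Only complement 2 stood below the baseline libraries. Its log2 fold change was −0.17 (SE 0.26, 95% interval −0.71 to 0.38, adjusted p = 0.717, edgeR).

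Caldesmon, calponin 1 and smoothelin bind actin filaments, the first and second as brakes on actomyosin and the last in fully contractile smooth muscle. CALD1 (ENSSSCG00000016535, chromosome 18 from 15075829 to 15194597) had 521.8, 641.2 and 704.3 CPM in baseline NPSC against 440.5, 443.0 and 808.2 in complement NPSC. Its complement libraries thus lay on both sides of the baseline range, and the log2 fold change was −0.14 (SE 0.30, 95% interval −0.78 to 0.50, adjusted p = 0.8, edgeR). CNN1 (ENSSSCG00000013614, chromosome 2 from 70536387 to 70544292) had 87.7, 77.4 and 94.5 CPM in baseline NPSC against 72.8, 64.7 and 121 in complement NPSC. The group means were 86.5 ± 8.6 and 86.2 ± 30.5 CPM (SD, n = 3 each), so the spread differed more than the level, and the log2 fold change was −0.0029 (SE 0.23, 95% interval −0.50 to 0.49, adjusted p = 0.996, edgeR). SMTN (ENSSSCG00000010017, chromosome 14 from 50990976 to 51014415) had 194.7, 185.6 and 210.7 CPM in baseline NPSC against 177.8, 179.9 and 291.6 in complement NPSC. It was the 1 gene of the 8 with a positive log2 fold change, 0.14 (SE 0.24, 95% interval −0.38 to 0.65, adjusted p = 0.758, edgeR), and this sign rested on complement 3.

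Desmin is the intermediate filament of muscle cells. DES (ENSSSCG00000020785, chromosome 15 from 134560460 to 134567338) had 79.0, 68.7 and 98.0 CPM in baseline NPSC against 57.4, 56.8 and 109 in complement NPSC. As for CALD1, CNN1 and SMTN, complement 1 and 2 were the lowest of all libraries and complement 3 the highest. The log2 fold change was −0.14 (SE 0.25, 95% interval −0.67 to 0.40, adjusted p = 0.772, edgeR). MYH11, the myosin heavy chain of smooth muscle and the most specific marker among the 10 genes (ENSSSCG00000000146), was listed at 0 counts in all 6 libraries. It lies on an unplaced scaffold of the files' build, and all 2451 genes on unplaced scaffolds (100%) had 0 counts in every library, against 839 of 22698 genes (3.70%) on chromosomes. The 0 counts of MYH11 therefore give no level of this gene.

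**Figure D3:**
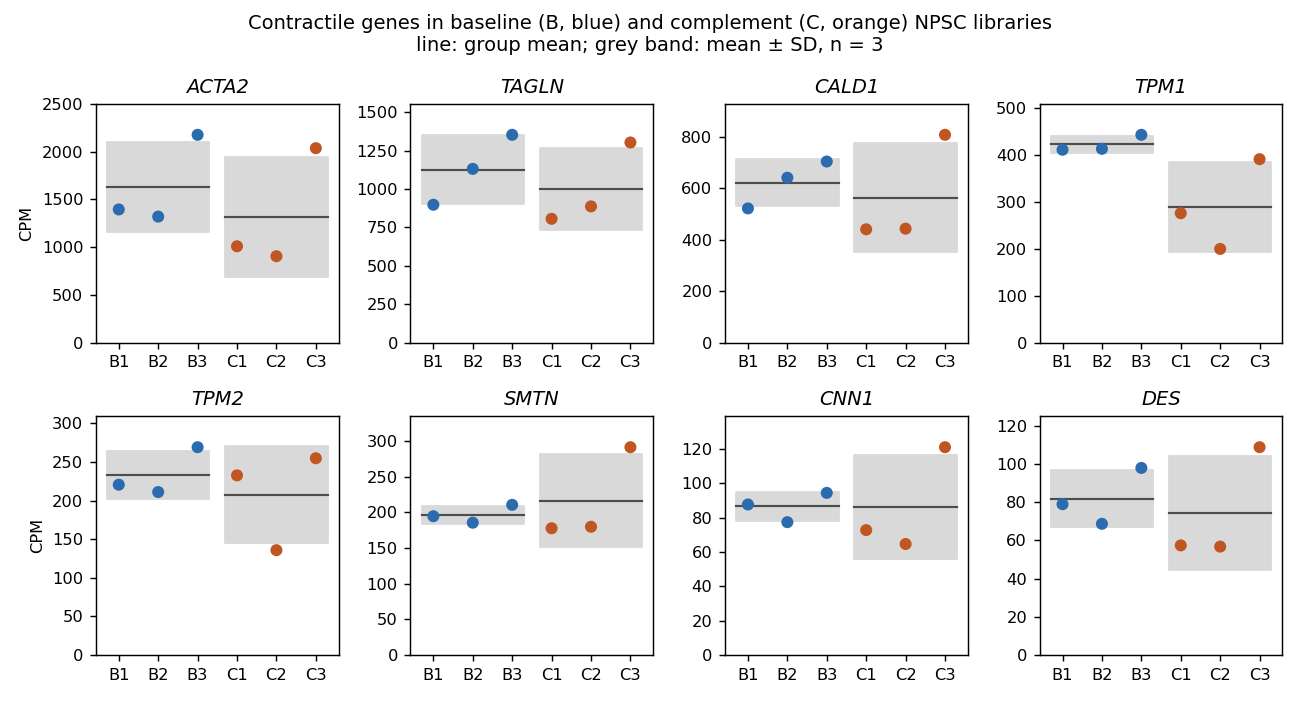
CPM of the 8 contractile genes with counts in each baseline (B, blue) and complement (C, orange) NPSC library, each panel from 0, with the group mean as a line and mean ± SD (n = 3) as a grey band. Complement 1 and 2 lie below complement 3 in all 8 panels, and TPM1 is the only panel in which all complement libraries lie below all baseline libraries.

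The 8 genes shared a profile over the libraries. Each lay above its own mean log2 CPM in baseline 3 and complement 3 and below it in complement 2, a combination found in 28.7% of all tested genes. Complement 3 lay above complement 1 and 2 for 8 of 8 genes, against 40.8% of all tested genes, and it was the highest of the 6 libraries for SMTN, CNN1, DES and CALD1, against 13.8%. Complement 1 and 2 both lay under all baseline libraries for 7 of 8 genes, all but TPM2, against 26.8%. The SD of log2 CPM was larger in complement than in baseline NPSC for 8 of 8 genes, against 60.6% of all tested genes. For TPM1 it was 0.0601 in baseline and 0.484 in complement NPSC, and for SMTN 0.0922 and 0.407. The summed level of the 8 genes was 3806, 4047 and 5348 CPM in baseline NPSC and 3071, 2870 and 5314 CPM in complement NPSC, or between 0.330% (complement 2) and 0.485% (baseline 3) of all counts. The lowest sums fell on the libraries with the highest olfactory receptor density, complement 1 and 2; the part of that density in these levels was examined only through the fits that follow.

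**Figure D4:**
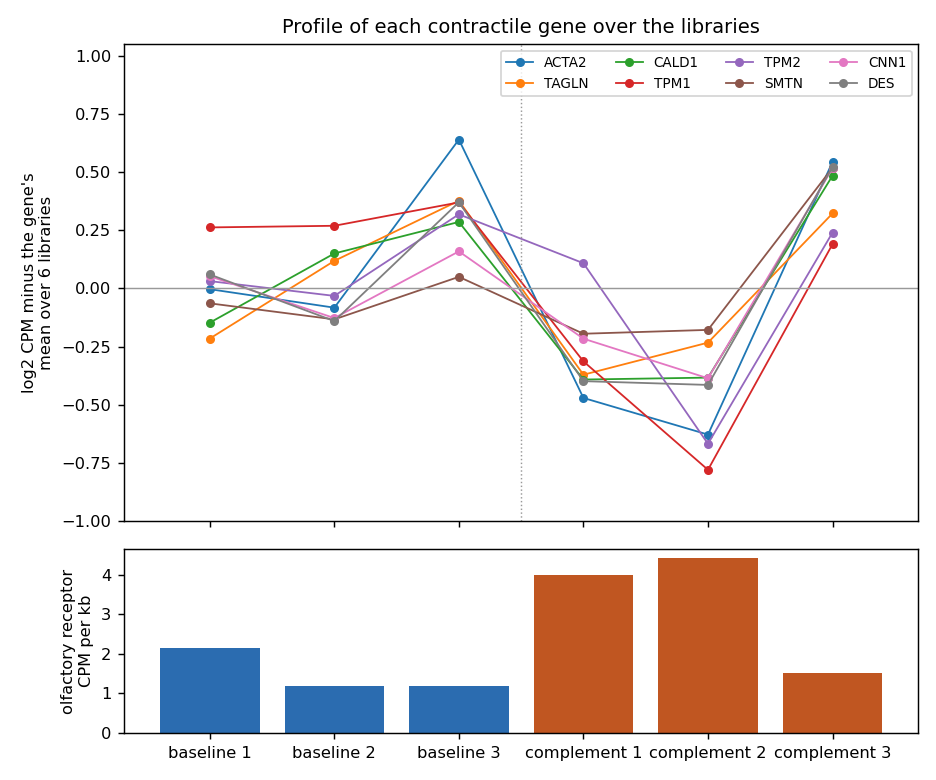
Upper panel: log2 CPM of each contractile gene minus its mean over the 6 libraries. Lower panel: density of counts on olfactory receptor genes in CPM per kb of exon, in baseline (blue) and complement (orange) NPSC libraries. All 8 genes lie above 0 in baseline 3 and complement 3 and below 0 in complement 2, the library with the highest olfactory receptor density (4.43 CPM per kb).

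The direction of the comparison depended on which complement libraries entered it. Without complement 3, all 8 log2 fold changes were below 0, with a median of −0.48, and 7 genes, all but TPM2, were lower without overlap, against 27.1% of all tested genes in the same 5 libraries. In that fit TPM1 had a log2 fold change of −0.86 (adjusted p = 0.0385, edgeR) and ACTA2 of −0.80 (adjusted p = 0.0635, edgeR), and 0 of 8 genes passed both thresholds, while 5.76% of all tested genes did. With complement 3 as the only complement library, assumed to vary like the baseline group, 7 of 8 log2 fold changes were above 0, with a median of 0.32 and adjusted p of 0.9999 for all 8 in edgeR. With the log2 olfactory receptor density as a covariate, 7 of 8 were above 0, with a median of 0.29. The range was −0.18 (TPM1) to 0.47 (SMTN), at adjusted p from 0.666 to 0.985 in edgeR. That density was highest in complement 1 and 2, so the covariate overlaps with the group and can take up part of a group difference. Signs that turn with it, here and in the lists below, are thus not independent of the fit with complement 3 alone. After the expected background was subtracted from the counts, the log2 fold changes ran from −0.32 (TPM1) to 0.35 (SMTN), and these 2 genes had groups that did not overlap, TPM1 lower and SMTN higher, against 15.8% of all tested genes in either direction (8.3% lower and 7.46% higher). Counting the reported fit and all alternatives, TPM1 was below 0 in 17 of 17 settings, ACTA2 in 15 and SMTN in 1.

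Ratios between genes of 1 library do not depend on how the library was scaled, and were compared for the 28 pairs among the 8 genes. In none did the difference between the groups pass a test. There were 0.474, 0.450 and 0.476 counts of SMTN per count of TPM1 in baseline NPSC against 0.645, 0.902 and 0.747 in complement NPSC, without overlap. Likewise 0.214, 0.188 and 0.214 counts of CNN1 per count of TPM1 in baseline NPSC stood against 0.264, 0.324 and 0.310 in complement NPSC. Between the tropomyosins, the ratio of TPM1 to TPM2 counts was 1.86, 1.96 and 1.64 in baseline NPSC against 1.19, 1.47 and 1.53 in complement NPSC. The ratio of TPM1 to CALD1 counts did not overlap either, although baseline 3 (0.628) and complement 1 (0.626) nearly met. Of the 28 pairs, these 4 with TPM1 and 2 others, ACTA2 to SMTN and SMTN to CNN1, had groups that did not overlap, against 16.4% of all pairs of tested genes. For ACTA2 to SMTN the ratio was 7.16, 7.11 and 10.3 in baseline NPSC against 5.67, 5.03 and 6.98 in complement NPSC. With 3 against 3 libraries, an exact two-sided permutation test cannot go below p = 0.1, which these 6 pairs reached, and Benjamini-Hochberg adjustment over the 28 pairs gave 0.4. The ratios were computed after the values of the genes had been seen, and the expected background, at most 10.8% of CNN1 counts, 7.12% of SMTN counts and 2.18% of TPM1 counts in a library, was not taken out of them. Set against every other tested gene, TPM1 was lower without overlap in 29.2% of such ratios and SMTN higher in 16.9%, so ratios without overlap were found for TPM1 and SMTN outside the contractile genes too. Among the pairs with overlap, the ratio of TAGLN to CALD1 counts was 1.80 ± 0.106 in baseline and 1.81 ± 0.195 in complement NPSC (SD, n = 3 each). The ratio of TAGLN to TPM2 varied more, at 4.82 ± 0.67 in baseline and 5.04 ± 1.54 in complement NPSC (SD, n = 3 each).

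**Figure D5:**
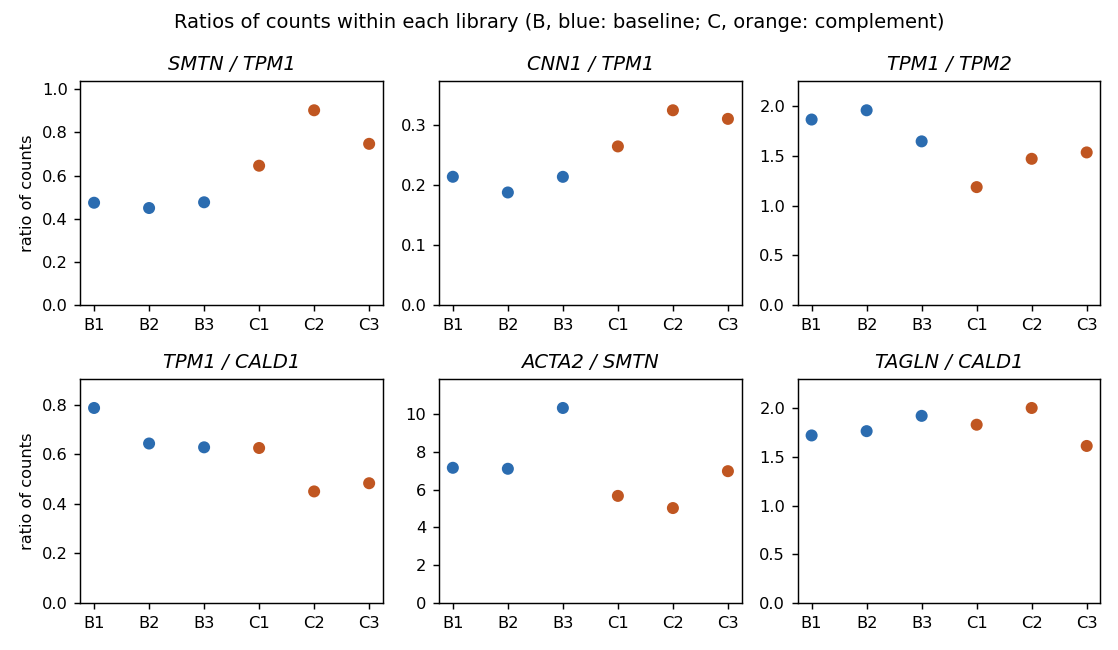
Ratios of counts between contractile genes within each baseline (B, blue) and complement (C, orange) NPSC library, each panel from 0. In the first 5 panels the groups do not overlap; in the last, TAGLN to CALD1, the libraries of both groups lie between 1.61 and 2.00.

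In the further lists of genes around contraction, LMCD1 alone passed the thresholds in the reported fit. Of a list of 30 further genes of the smooth muscle contraction apparatus (the kinase and phosphatase that act on myosin, actin anchors, calcium channels), 22 were tested and 0 passed the thresholds in either direction, with 16 below 0 and a median log2 fold change of −0.18, but with the olfactory receptor density as a covariate 19 were above 0, with a median of 0.19. The 3 with the highest CPM were actin anchors. ACTN4 (alpha-actinin 4) had means of 1555 and 1102 CPM in baseline and complement NPSC, TLN1 (talin 1) 1214 and 937.1, and VCL (vinculin) 827.8 and 684.5. Their log2 fold changes of −0.50, −0.37 and −0.27 did not pass the test, and with the covariate they were −0.040, 0.040 and 0.090. MYLK, the myosin light chain kinase, had a level of 25.02 CPM per kb and a log2 fold change of −0.22 that did not pass either. Of 15 non-muscle counterparts, 10 were tested and 0 passed, with 9 below 0 and a median of −0.40, but with the covariate 5 were below 0 and 5 above, with a median of 0.0073. Among them ACTB had a log2 fold change of −0.48, ACTG1 of −0.20 and VIM (vimentin, the intermediate filament of mesenchymal cells) of −0.39. With the covariate these were 0.021, 0.29 and 0.048.

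Of 10 genes listed under SRF and its cofactors, 6 were tested, 1 passed as higher and 0 as lower, with 4 below 0 and a median of −0.15. With the covariate the same 1 passed, and 6 of 6 were above 0, with a median of 0.24. SRF itself had means of 148.9 CPM in baseline and 146.2 CPM in complement NPSC, and its log2 fold change was −0.025, which did not pass. The gene that passed was LMCD1, a LIM domain protein known for restraining GATA6, at 28.0, 37.1 and 30.4 CPM in baseline NPSC against 77.9, 77.0 and 115 in complement NPSC. LMCD1 rose by 1.503 on the log2 scale (adjusted p = 0.00963, edgeR) without overlap. Since the study had listed it from these same libraries, it is not independent evidence on the list. Though in this list, LMCD1 is not described here as a cofactor of SRF, and its rise was not read as a result about SRF. KLF4, a repressor of smooth muscle genes in cultured cells, had a log2 fold change of −0.30, and MRTFA, an actin-sensing cofactor of SRF, of −0.27; neither passed.

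Receptors for agonists that make peritubular myoid cells contract were tested for 7 of 10 listed genes, and 0 passed in the reported fit. OXTR, the oxytocin receptor, had 137.4, 116.1 and 101.3 CPM in baseline NPSC against 65.2, 55.1 and 75.2 in complement NPSC. These groups did not overlap, but the log2 fold change of −0.86 was short of both thresholds (adjusted p = 0.223, edgeR). In DESeq2's Wald test it was past the adjusted p threshold but not that of the fold, at −0.91 (adjusted p = 0.0251), and with the covariate in edgeR past neither, at −0.80 (adjusted p = 0.243). The study had also listed this gene from these libraries. BDKRB2, the bradykinin B2 receptor, had 41.03, 56.7 and 46.4 CPM at baseline and 58.1, 86.8 and 125 after complement, with a log2 fold change of 0.91 (adjusted p = 0.261, edgeR). Its groups did not overlap either, and with the olfactory receptor density as a covariate it was past both thresholds, at 1.365 (adjusted p = 0.0184, edgeR), while DESeq2's Wald test gave 0.86 (adjusted p = 0.18). EDNRA, the endothelin A receptor, had a log2 fold change of 0.20 that did not pass. Of 12 other genes known in peritubular myoid cells, 8 were tested, 0 passed and 5 were below 0, with a median of −0.25 and, with the covariate, −0.075. PDGFRA, a receptor for platelet-derived growth factor, had a log2 fold change of −0.35, PTCH1, the receptor for the desert hedgehog of Sertoli cells, of −0.22, and NR2F2, a nuclear receptor of the testis interstitium, of −0.82. With the covariate they were 0.33 (PDGFRA), −0.10 (PTCH1) and −0.28 (NR2F2). None of these 3 genes passed the test in either fit.

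Markers of other cells that could carry the contractile genes, or that make up the rest of the preparation, were read over the same libraries. Genes of pericytes and vascular smooth muscle (6 of 7 tested, 0 passed) had summed levels of 415.2 to 593.7 CPM in baseline NPSC against 382.4, 435.6 and 758.5 in complement NPSC, with complement 3 the highest and complement 2 the lowest. CSPG4 (NG2), MCAM and NOTCH3 led this list, at means of 292.2, 114.9 and 50.5 CPM in baseline NPSC. The endothelial list (KDR, PECAM1 and TEK tested of 6 genes, 0 passed) ran in the same order over the complement libraries, at 336.5, 256.4 and 607.8 CPM, with 367 to 555.8 in baseline NPSC. Fibroblast genes (5 of 7 tested, 0 passed), led by COL1A2, COL3A1 and DCN, summed to 3072 to 5600 CPM in baseline and 4406 to 6672 in complement NPSC, again highest in complement 3. COL1A2 was the 1 gene of this list without overlap, at 1141, 1614 and 2419 CPM at baseline against 2874, 2989 and 2879 after complement, while COL3A1, LUM and FAP had log2 fold changes below 0 that turned above 0 with the covariate. Striated muscle genes (7 of 14 tested, 0 passed, 7 of 7 above 0) summed to only 81.2 to 143.1 and 114.3 to 171 CPM, led by MYH3, TNNT1 and ACTA1. The expected background was 11.5% to 66.7% of the counts of these 7 genes, and with the covariate 5 of the 7 were below 0.

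The Sertoli cell list, the labelled cell type, had 12 of 15 genes tested and 0 past the thresholds, with 9 below 0 and 6 lower without overlap, where 8.14% of all tested genes were lower in this way. Of the 12, KRT18 was higher without overlap, with a log2 fold change of 0.61. The summed level of the Sertoli cell list was 5275 to 8019 CPM in baseline NPSC and 3520 to 4144 in complement NPSC, without overlap. CLU alone had 3592 to 5996 CPM in baseline and 2184 to 2862 in complement NPSC, so this sum largely repeats CLU. CLU, CLDN11 and INHA led the list, with log2 fold changes of −0.83, −0.63 and −0.73. Leydig cell genes (4 of 7 tested, 0 passed), led by INSL3, CYP17A1 and NR5A1, summed to 970.9 to 1179 CPM in baseline and 743.1 to 797.1 in complement NPSC, and 3 of the 4 genes were lower without overlap. Macrophage genes (4 of 6 tested, 0 passed, led by CD68, CD14 and CSF1R) summed to 65.2 to 93.5 and 48.1 to 77.8 CPM, and germ cell genes (4 of 6 tested, 0 passed, led by KIT, UCHL1 and DND1) to 235.6 to 380.8 and 175.4 to 324.5 CPM. Of the genes of these lists found in the files, only CYP11A1 of the Leydig list had 0 counts, and it also lies on an unplaced scaffold. Which cells of the NPSC preparation carried the contractile transcripts, and the part of cell makeup in their levels, was not tested.

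The genes whose profile over the 6 libraries was most like that of ACTA2, by Euclidean distance of mean-centred log2 CPM, were NRP1 (distance 0.241), IGFBP7 (0.244), COL4A2 (0.268), MEX3D (0.272) and FUT8 (0.276), where the median over all other tested genes was 1.34. NRP1 is a co-receptor for semaphorins and vascular endothelial growth factor, and COL4A2 is a type IV collagen chain of basement membranes. COL4A2 had 1251, 1346 and 1980 CPM in baseline NPSC against 954.6, 767 and 2155 in complement NPSC, the same order of high and low libraries as ACTA2 within the complement group except that complement 3 was its highest library of all. Among the contractile genes, DES lay nearest to ACTA2 (distance 0.362, rank 44 of 17511), then CALD1 (0.519, rank 246) and CNN1 (0.6, rank 583). TAGLN (0.608, rank 631), TPM1 (0.663, rank 1089), TPM2 (0.731, rank 1842) and SMTN (0.795, rank 2691) followed. These distances over 6 libraries, which differed in depth and olfactory receptor density, are a description with no test.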

How the data were processed

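The authors deposited raw read counts per gene, 1 file per library, with each gene's position and summed exon length. Per the submitters' processing notes, Trimmomatic 0.36, STAR 2.5.2b and featureCounts of Subread 1.5.2 were used; genome build, annotation and strand setting are not given in the sources used here. Counts were tested as deposited in edgeR 4.0.16 (R 4.3.3): filterByExpr, TMM, quasi-likelihood F-test, adjustment over 17512 genes, log2 CPM with a prior count of 2. Intervals are 95% from the moderated t distribution, and SE is the log2 fold change over the root of F. DESeq2 1.42.0 was an alternative, and the edgeR fit was tested on simulated data. Replicates are plates, so p-values measure the spread between plates, which may include that between litters. No 2 libraries were identical. No other gene shares exon bases with a contractile gene.

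The 10 genes, the further lists (written from general knowledge) and the tests were chosen with earlier results of these data known. The text names the contractile genes, each list's 3 highest genes by CPM with those past the thresholds, and the 5 genes nearest ACTA2. MYLK, ACTG2, ACTC1, KRT18, DHH, PDGFRB, LUM, FAP, CYP11A1 and, in a plot, MYH9, TPM4 and CNN3 were added after values were seen. Plots used matplotlib 3.10.9 in Python 3.11.15. Quantitative PCR and protein assays were not analysed here.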

Additional observations from a re-analysis of the deposited data

How the results depend on the processing

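The 0 of 8 contractile genes past the thresholds held in all 16 alternatives, and the count of all tested genes past them (18 in the reported fit) ran from 9 without baseline replicate 2 to 1063 without complement replicate 3, with 298 without baseline replicate 1, 53 in DESeq2, 31 without a count filter and with background subtracted, and 58 with the covariate. The median log2 fold change of the 8 genes moved from −0.16 to 0.32 with complement 1 and 2 left out, to 0.29 with the covariate, and to between −0.48 (without complement replicate 3) and −0.0037 with 1 library left out. Genes without overlap numbered 1 to 7 with 1 library left out (7 without complement replicate 3) and 2 after background subtraction, where the shares of all tested genes in either direction were 21.1% to 58.6% (58.6% without complement replicate 3) and 15.8%. Signs turned with complement 1 and 2 left out (ACTA2 0.29, TAGLN 0.18, CALD1 0.35, CNN1 0.46, DES 0.38, TPM2 0.10), with the covariate (ACTA2 0.28, TAGLN 0.28, CALD1 0.38, CNN1 0.36, DES 0.30, TPM2 0.13) and after subtraction (TAGLN 0.083, CALD1 0.074, CNN1 0.18, DES 0.0072, TPM2 0.072). CNN1 also turned under upper-quartile scaling (0.0904), which moved the median of all genes from 0.018 to 0.13, and where every library had to hold at least 10 counts (0.0249). With 1 library left out the ranges crossed 0 for CALD1 (−0.52 to 0.0056), CNN1 (−0.36 to 0.15), DES (−0.55 to 0.016), SMTN (−0.17 to 0.26) and TPM2 (−0.37 to 0.0457), the low end each time without complement replicate 3. The cause was not tested.

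With the replicate block, TPM1 had a log2 fold change of −0.60 (adjusted p = 0.0463) in edgeR and −0.66 (adjusted p = 0.0231) in DESeq2. In these fits 0 of 8 genes passed both thresholds, while 728 genes in all passed in edgeR and 33 in DESeq2. OXTR (−0.86, adjusted p = 0.000131, edgeR), BDKRB2 (0.86, adjusted p = 7.2e-05, edgeR) and NR2F2 (−0.84, adjusted p = 0.000233, edgeR) were past the p threshold only. So were 6 Sertoli cell genes, PDGFRB and CSF1R lower, and KRT18, DHH, MYH3 and TNNT1 higher. Deviations of same-numbered libraries from their group means correlated at 0.456, 0.0302 and 0.482. Libraries numbered 1 and 3 correlated best with their own number, and neither library numbered 2 did. With 3 libraries per group this check cannot tell whether the numbers pair the samples. Nothing states that they do, so the reported fit has no block. The lowest count of a tested contractile gene was 238 (DES, complement 2). The SD of log2 CPM between complement plates ran from 0.367 (TAGLN) to 0.635 (ACTA2). Counting error and the spread between plates were not compared.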
